A study of Mus musculus with 4 samples.

Results

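Methylated windows of high sequencing depth were described in mouse embryonic stem (ES) cells that lack Naa10 and in wild-type cells. Reduced representation bisulfite sequencing cuts DNA with the enzyme MspI and reads, in the CpG-rich fragments so obtained, which cytosines of CpG sites resist conversion and are counted as methylated. There were 2 libraries of Naa10 knockout (KO) ES cells and 2 of wild-type (WT) ES cells, and the cells of all 4 had been kept on irradiated feeders in N2B27 medium, to which LIF and Mek and Gsk3 inhibitors were added, and then passaged 5 times with no feeders. The sources used here do not give how the knockout was made or whether a genotype's libraries stem from different cultures, so p-values measure only library-to-library spread, and this may be technical. The 19 autosomes were divided into windows of 1 kb, and 119319 windows held at least 3 cytosines with 10 or more methylation calls in every library. The members were chosen by measured values, namely a mean depth of 60 or more calls per cytosine over the 4 libraries and a methylation level of 80% or more in both WT libraries. The level of a window is its methylated calls over all its calls. The rule found 1210 windows with 7470 cytosines. They were 43.9% of the 2755 windows that reached this depth and 2.30% of the 52664 windows that reached this WT level. They were set beside 39267 windows with the same WT minimum and 15 to 40 calls per cytosine, called comparison windows here.

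Methylation of CpG sites is copied at each cell division by the maintenance methyltransferase DNMT1, and sequence repeats, such as satellites and retrotransposons, are among the sites that mammalian cells usually keep methylated. Reads from a repeat can be placed at the wrong copy, or at the only copy that a genome assembly holds, and such a place then collects more reads than a unique one. The level measured there is a mean over the copies that were read. Naa10 encodes the catalytic subunit of the N-terminal acetyltransferase NatA. These libraries hold no expression, and Naa10 itself was not checked here. No sequence or repeat annotation of the mouse build mm9 was used, so no window below is named as a repeat or assigned to a gene.

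The libraries held 68929594 and 70594987 calls in KO replicates 1 and 2, and 79540412 and 68586396 calls in WT replicates 1 and 2. Beyond counting error (a ratio of 1), the methylation counts of the 2 KO libraries differed with a chi-square of 2.46 per cytosine tested (304950 cytosines), and those of the 2 WT libraries with 1.10 (255836 cytosines). Members took 1.23% and 1.24% of the calls of all windows in the KO libraries, and 1.22% and 1.21% in the WT libraries. Duplicate reads were not marked by molecule, so the counting intervals below cover counting error only.

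Most members lay just above the depth that the rule asked for. Their median depth was 65.2 calls per cytosine, against 28.2 over all windows, and the 95th and 99th percentiles of all windows were 53.3 and 66.6 calls. A depth below 80 calls was found in 1078 members (89.1%). Another 60 members had 80 to 100 calls, 56 had 100 to 200, and 16 had 200 or more. The depth therefore sets apart a small group of members and leaves the rest at the upper end of one continuous range. The windows next to the threshold had like values. On chromosome 2, the member 153623001 to 153624000 (mm9) had 60 calls per cytosine and levels of 42.4% and 32.4% in the KO libraries and 92.2% and 92.5% in the WT libraries. On chromosome 6, the member 90379001 to 90380000, also at 60 calls, had 22.9% and 14.8% in KO, and 84.9% and 86.5% in WT. Just below it, the window 110321001 to 110322000 of chromosome 11 at 59.98 calls had 36.0% and 20.5% in KO, and 94.0% and 92.6% in WT. The window 72408001 to 72409000 of chromosome 6, at 59.96 calls, had 25.7% and 16.7% in KO, and 90.3% and 87.4% in WT.

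Deep methylated windows had far lower methylation in KO cells than in WT cells. The mean level over the 1210 members was 33.5% and 22.8% in KO replicates 1 and 2, against 90.2% in each WT library. The group means were 28.2% ± 7.53 in KO and 90.2% ± 0.0025 in WT (SD, n = 2 each). The KO libraries thus held 37.1% and 25.3% of the mean WT level, a mean of 31.2% ± 8.34 (SD, n = 2), and they differed from each other more than the WT libraries did. KO replicate 1 was above KO replicate 2 in 1197 of the 1210 windows. In all 1210 the higher KO library was below the lower WT library. Calls were made with edgeR's quasi-likelihood test of the methylation counts, at a Benjamini-Hochberg adjusted p below 0.05 over all windows and with group means 10 or more percentage points apart. All 1210 members were called lower in KO and 0 higher. Among all 119319 windows 91225 (76.5%) were called lower, and among the comparison windows 39263 of 39267. The rule asked for a high WT level, so the count of members called is a description and shows nothing particular to them.

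The range of levels among members was wide in KO. In KO replicate 1 the lowest member had 3.61%, the median member 32.5% and the highest 72.4%. In KO replicate 2 these values were 0.866%, 21.4% and 64.8%. The WT levels ran from the 80.0% of the rule to 98.4% in replicate 1 and 98.6% in replicate 2, with a median of 90.9% in each. The order of the windows was shared by the KO libraries, with a Spearman correlation of 0.911 across the 1210 windows, which lie on the same DNA fragments in both libraries and share their copy number and base composition. Across the comparison windows, whose levels rest on fewer calls, it was 0.798. Both KO libraries had 50% or more in 31 members (2.56%) and less than 10% in 16 members (1.32%).

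**Figure D1:**
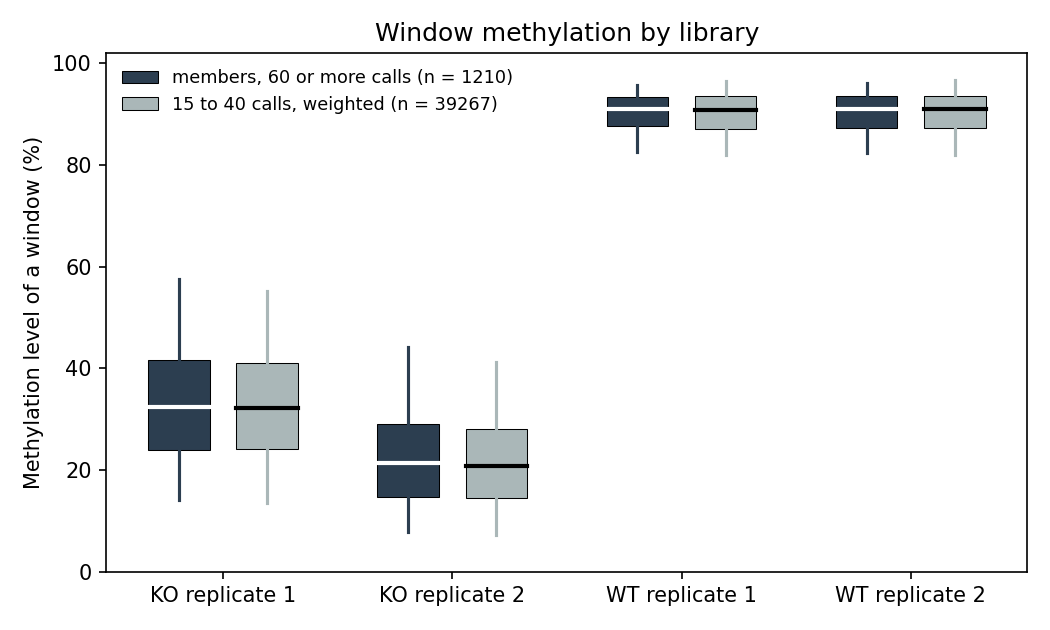
Methylation level (%) of windows in each library, for the 1210 members and for the 39267 comparison windows weighted to the same WT levels; boxes span the 25th to 75th percentile, the line in a box is the median and whiskers run from the 5th to the 95th percentile over windows. In KO replicate 1 the medians are 32.5% for members and 32.2% for comparison windows, and in KO replicate 2 they are 21.4% and 20.8%.

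Set against windows of ordinary depth and like WT level, the members as a whole kept 31.2% of the WT level and the comparison windows 30.5%. Comparison windows were weighted so that their WT levels, in steps of 2 points, were distributed as those of the members. Their weighted mean was then 33.0% and 22.1% in the KO libraries, and 90.2% and 90.3% in the WT libraries, which is 36.6% and 24.5% of the WT level in the KO libraries. Members were above comparison windows by 0.456 points in KO replicate 1 and by 0.744 points in KO replicate 2. In WT they differed from the comparison windows by 0.0349 and -0.0377 points. The difference between KO and WT in this gap was 0.601 points, and a two-sided exact permutation test over the 4 libraries gave p = 0.33, which is the lowest that a design of 2 against 2 can give. The gap was 0.335 points without members that lie side by side, 0.352 without the deepest positions and 0.983 without chromosomes 8 and 14. It was 4.10 points when calls were summed over windows, which weights each window by its calls. The 2 deepest windows held 19.2% of member calls. The 166 members of chromosome 8 lay below comparison windows, with a gap of -1.85 points, and the 1044 members elsewhere above them, with 0.991 points. Both were set against comparison windows of all autosomes, so depth and chromosome cannot be told apart in these 2 gaps. Members of chromosomes 7 and 15 kept a smaller share of the WT level (27.69% and 27.73%) than those of chromosome 8 (29.22%). With weights by WT level and chromosome the gap over all members was 0.681 points. Fewer comparison windows were at 50% or more in both KO libraries, with a weighted share of 1.499% against the 2.56% of the members, and 1.69% were below 10% in both.

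The gap was not spread evenly over depth. The 1078 members of 60 to 80 calls differed from the comparison windows by -0.195 points in KO replicate 1 and by 0.195 points in KO replicate 2. The 60 members of 80 to 100 calls were above them by 1.82 and 1.92 points. The 56 members of 100 to 200 calls were above them by 11.0 and 9.68 points, and the 16 members of 200 or more calls by 2.43 and 2.06 points. In WT these classes differed from the comparison windows by at most 0.435 points. The exact permutation test gave p = 0.33 for each of the 3 deeper classes and 1 for members of 60 to 80 calls, which is 0.444 for those 3 after Benjamini-Hochberg adjustment over the 4 classes. This design cannot pass a threshold of 0.05. Windows of 40 to 60 calls, which are no members, differed from the comparison windows by -0.208 and -0.120 points in the KO libraries.

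**Figure D2:**
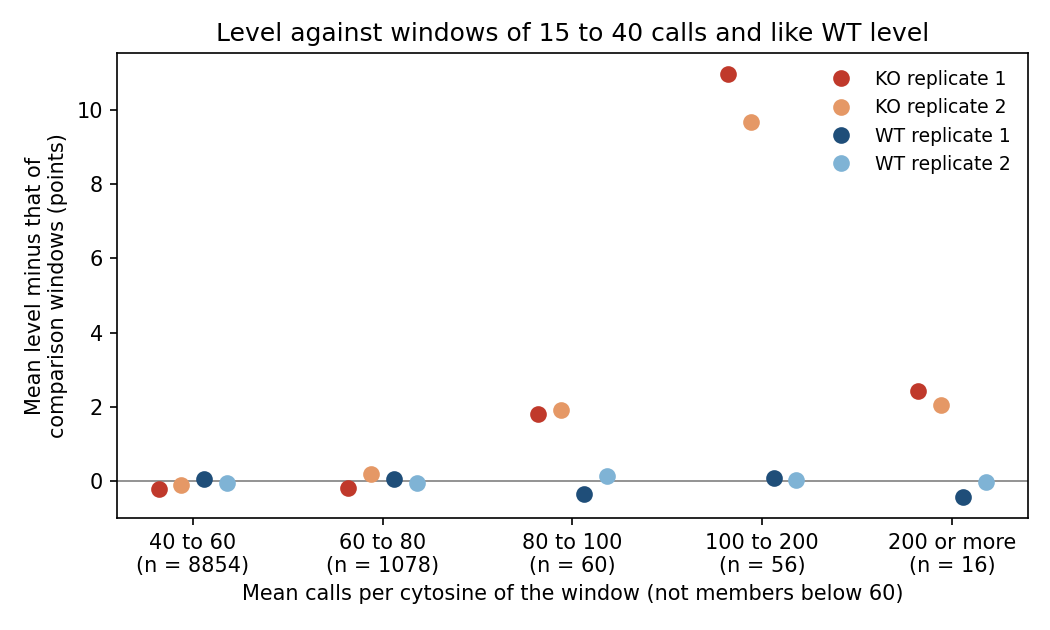
Mean methylation level of windows in each class of depth minus that of comparison windows weighted to like WT levels, in percentage points, with 1 point per library and the number of windows under each class. The KO libraries stand at 11.0 and 9.68 points for members of 100 to 200 calls and between -0.195 and 2.43 points for the other members, while the WT libraries stay between -0.435 and 0.128 points.

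Taking the 72 members of 100 or more calls together, the mean level was 43.4% and 31.1% in KO replicates 1 and 2, against 91.0% and 91.1% in the WT libraries. They kept 40.9% ± 9.54 of the WT level (SD, n = 2 KO libraries), and comparison windows weighted to their WT levels kept 31.5% ± 8.70. Both KO libraries had 50% or more in 10 of the 72 (13.9%). The lead over comparison windows was 9.07 points in KO replicate 1 and 7.98 points in KO replicate 2. It rested in part on neighbours, since 26 of the 72 lay with another member in a group whose windows start no more than 2 kb apart. Without such windows 46 remained, and the KO minus WT difference of the gap was 6.06 points in place of 8.54. When the deepest single positions of the genome were left out before windows were formed, 23 windows still reached 100 calls and the difference was 4.71 points.

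KO levels followed the WT level. Members of 20 or more cytosines stood above members of fewer, while comparison windows of that size did not stand above other comparison windows. Across all members the Spearman correlation of the number of cytosines with KO level was 0.0694. Members with a WT level of 80 to 85% averaged 24.7% and 16.2% in the KO libraries, and those with 95% or more averaged 48.7% and 35.8%. Comparison windows of these 2 classes averaged 26.5% and 17.4%, and 43.9% and 31.2%. Members thus spread slightly further than comparison windows, lying below them in the lowest WT class and above them in the highest. The Spearman correlation of WT with KO level was 0.539 across members and 0.416 across comparison windows, and that of depth with KO level was 0.110 across members and -0.0285 across comparison windows. Windows share libraries, and their levels carry counting error, so these are descriptions. The 561 members of 3 or 4 cytosines averaged 32.4% and 22.0% in KO, and the 505 members of 5 to 9 cytosines 33.9% and 23.2%. The 19 members of 20 or more cytosines averaged 44.7% and 32.8%, against 32.6% and 21.3% in the 933 comparison windows of that size. These 19 also had more depth than other members, with a median of 110.7 calls. Some of the 19 lay side by side. A group of 6 neighbouring members on chromosome 5, for example, held 155 cytosines and kept 50.7% of the WT level. How many of the 19 lie in such groups was not counted, and neighbours were not counted as 1 here.

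The deepest members lay on chromosome 2. The window 98502001 to 98503000 had 4289 and 4853 calls per cytosine in the KO libraries, and 5148 and 4652 in the WT libraries. Its levels were 38.2% and 27.5% in KO and 82.1% and 82.6% in WT. The window 98505001 to 98506000 had 3601 and 4229 calls per cytosine in KO, and 5351 and 4312 in WT. Its levels were 34.0% and 23.5% in KO, and 90.1% and 89.98% in WT. These 2 windows held 19.2% of all calls of the 1210 members. They kept 39.9% and 31.9% of the WT level, beside a mean of 31.2% over all members.

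The other 6 of the 8 deepest members had 322 to 1360 calls per cytosine, and they included both well kept and almost emptied windows. On chromosome 8, the window 19783001 to 19784000 had levels of 45.3% and 28.4% in KO and 93.2% and 93.0% in WT. The window 19761001 to 19762000 of the same chromosome had 30.1% and 19.4% in KO, and 93.4% and 92.9% in WT. The window 70579001 to 70580000 of chromosome 3 had 35.4% and 24.3% in KO, and 90.4% and 91.5% in WT. These 3 windows kept 39.6%, 26.6% and 32.8% of the WT level. On chromosome 6, the window 103599001 to 103600000 had 35.7% and 27.2% in KO, and 81.3% and 81.6% in WT. The window 71998001 to 71999000 of chromosome 8 fell to 12.7% and 7.04% in KO, against 92.7% and 92.4% in WT. The window 6043001 to 6044000 of chromosome 14 fell to 12.8% and 5.74% in KO, against 80.8% and 82.0% in WT. These last 2 kept 10.7% and 11.4% of the WT level. Each of the 8 was called lower in KO, as were 39263 of the 39267 comparison windows. The rule asked for a high WT level, so these calls are a description. The widest Wilson 95% interval of a level among the 8 was ± 2.25 points.

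**Figure D3:**
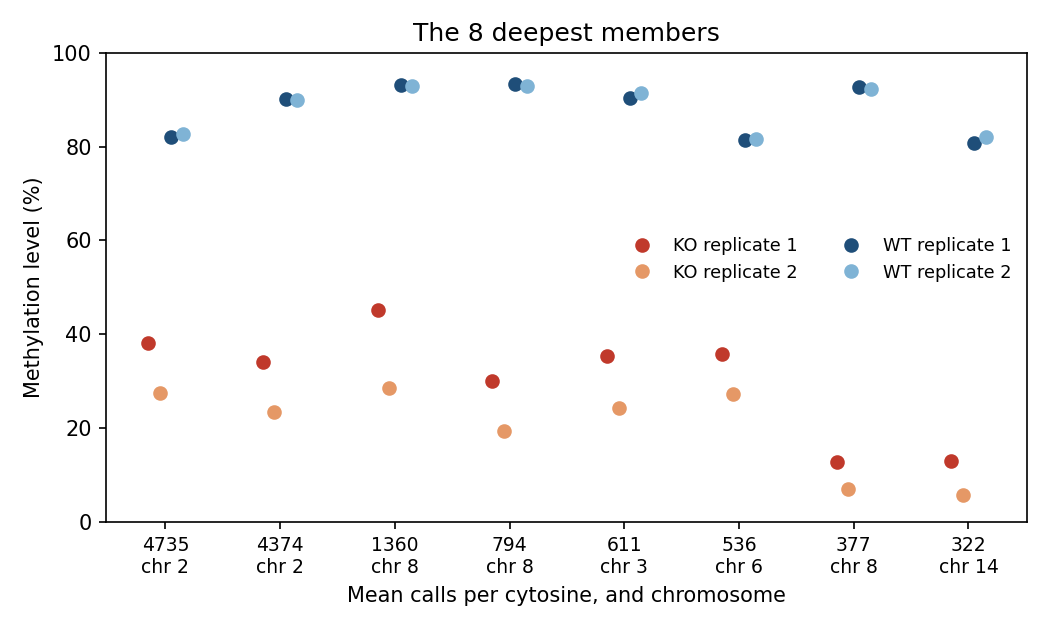
Methylation level (%) in each library for the 8 members with the most calls per cytosine, ordered by this mean depth, which stands under each window with its chromosome. KO levels lie between 12.7% and 45.3% in replicate 1 and between 5.74% and 28.4% in replicate 2, and no KO value overlaps a WT value.

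Inside some of the deepest windows the calls sat on few cytosines, while others, such as the window of chromosome 3 with 576 to 685 calls on each of its 3 cytosines, were evenly covered. In the window 98502001 to 98503000 of chromosome 2, 3 of 22 cytosines, at 98502834, 98502843 and 98502952, held 28657 to 33918 calls in each library. Their direct neighbours on the other side of the CpG, at 98502833, 98502842 and 98502951, held 15 to 2079. The cytosine at 98502952 had levels of 60.4% and 45.8% in KO, against 93.7% and 93.5% in WT. The cytosine at 98502843 had 20.0% and 13.1% in KO, against 81.7% and 82.2% in WT, with almost the same depth. In WT the cytosine at 98502758 had 35.6% and 36.4%, and that at 98502786 had 38.7% and 37.4%. Levels within 1 deep window thus differed from cytosine to cytosine by far more than counting error. On chromosome 8, the 4 deep cytosines of the window 19783001 to 19784000, with 2170 to 2709 calls each, ran in KO replicate 1 from 68.4% at 19783827 to 49.6% at 19783842, 45.7% at 19783855 and 17.5% at 19783918. In KO replicate 2 the same cytosines had 52.6%, 26.6%, 26.2% and 8.84%, and in WT they had 87.6 to 97.2%.

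Uneven depth within a window was rare below 100 calls. Every cytosine kept had 10 or more calls in each library, so shallower windows can seldom reach a ratio of 10. The counts by depth class are thus in part set by this minimum and are a description. The deepest cytosine had at least 10 times the calls of the shallowest in 1 of the 1078 members of 60 to 80 calls, in 3 of 60 at 80 to 100, in 15 of 56 at 100 to 200 and in 11 of 16 at 200 or more, and in 0 of the comparison windows, whose narrow range of depth limits this ratio. Over all members the median ratio was 1.30. The range between the highest and lowest cytosine of a member had a median of 23.7 points in KO and 9.54 points in WT, where the rule holds levels near the upper end. It was wider in KO in 84.6% of members and in 81.4% of comparison windows, whose median ranges were 29.8 points in KO and 13.0 points in WT and rest on fewer calls.

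Members with the highest KO levels were found on 6 chromosomes. On chromosome 11, the window 98484001 to 98485000 had 72.4% and 64.8% in KO, and 96.1% and 96.4% in WT. The window 132834001 to 132835000 of chromosome 2 had 72.3% and 63.6% in KO, and 95.5% and 96.9% in WT. Near the start of chromosome 9, the window 3001001 to 3002000 had 69.9% and 64.6% in KO, and 89.0% and 90.2% in WT. It kept 75.1% of the WT level, more than the other 7 named for a high KO level. The other 5 were the windows starting at 5254001 on chromosome 12, 92332001 on chromosome 2, 172874001 on chromosome 1, 3049001 on chromosome 11 and 13405001 on chromosome 8. They had mean KO levels of 63.1 to 65.3% and mean WT levels of 92.8 to 97.1%. Depth in these 8 windows ran from 61.8 to 184.7 calls per cytosine, and 2 of the 8 had over 100.

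The 8 members with the lowest KO levels each had fewer than 100 calls per cytosine. On chromosome 11, the window 115331001 to 115332000 fell to 5.62% and 2.82% in KO, against 85.2% and 86.4% in WT. The window 119688001 to 119689000 of chromosome 7 fell to 3.61% and 4.97% in KO, against 88.4% and 84.3% in WT. The window 23694001 to 23695000 of chromosome 19, with 19 cytosines, fell to 6.84% and 2.79% in KO, against 90.02% and 88.0% in WT. The other 5, starting at 52639001 on chromosome 15, 121734001 on chromosome 8, 137540001 on chromosome 5, 139118001 on chromosome 7 and 131443001 on chromosome 2, had mean KO levels of 5.56 to 6.43% and mean WT levels of 84.5 to 89.2%. Depth in these 8 windows was 61.6 to 92.8 calls per cytosine.

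Some members lay side by side, and the largest of these groups kept more methylation than the mean of all members. The 1210 members formed 1168 groups, of which 1138 were a single window, 25 held 2 members and 5 held 3 or more. On chromosome 5, 6 members between 23207001 and 23215000 with 155 cytosines and 114.0 to 228.3 calls per cytosine had mean levels of 52.5% and 40.8% in KO, and 92.1% and 91.8% in WT. On chromosome 8, 6 members between 125951001 and 125959000 with 122 cytosines had 55.8% and 42.2% in KO, and 94.8% and 95.2% in WT. On chromosome 12, 4 members between 20237001 and 20241000 with 113 cytosines had 52.6% and 36.4% in KO, and 91.5% and 92.0% in WT. These 3 groups kept 50.7%, 51.6% and 48.5% of the WT level, above the 31.2% of all members. The group of 3 members at 98505001 to 98508000 of chromosome 2 kept 47.9% and that at 3048001 to 3051000 of chromosome 11 kept 42.5%. Within the last of these the mean KO level of single windows ran from 24.2 to 63.3%. The 25 pairs kept 13.7 to 65.3%, and 15 of them kept less than the 31.2% of all members.

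The distances between CpG sites were not used by the rule. They recurred at other places of the genome in a larger share of members of 80 or more calls than of comparison windows. Cytosines of a window at adjacent positions were joined to 1 CpG, and a pattern of 6 successive distances, in either direction, was looked up in all 119319 windows. Of the members of 80 or more calls, 42 had the 7 CpG sites needed, and 11 of them (26.2%, exact 95% binomial interval 13.9 to 42.0%) had a pattern also found in another window. Of the members of 60 to 80 calls it was 3 of 55 (5.45%, 1.14 to 15.1%), and of the comparison windows 227 of 7912 (2.87%, 2.51 to 3.26%). The intervals treat windows as independent, which copies of 1 sequence are not. Windows with more CpG sites hold more patterns to look up, and the shares were not adjusted for this. A shared pattern is a match of distances only, and whether the windows share their sequence was not tested. The other members had too few CpG sites to be looked up.

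One pattern, with distances of 4, 2, 11, 12, 3 and 25 bp, was found in 15 windows on 8 chromosomes, of which 2 were members. The member 92842001 to 92843000 of chromosome 10, with 134.6 calls per cytosine, had 52.8% and 38.3% in KO, and 93.1% and 92.6% in WT. The member 35309001 to 35310000 of chromosome 8, with 60.8 calls, had 45.0% and 34.5% in KO, and 90.7% and 91.9% in WT. The mean KO levels of the 15 windows lay between 31.3 and 46.1%, with a median of 41.7%, while their depth ran from 16.8 to 134.6 calls. The other 13, at 16.8 to 57.0 calls, covered the levels of the 2 members. A second pattern, with distances of 4, 2, 6, 2, 24 and 5 bp, was found in 6 windows on 6 chromosomes. Its member, 15408001 to 15409000 on chromosome 7 at 134.9 calls, had 51.0% and 40.3% in KO, and 93.2% and 94.0% in WT. Of its other 5 windows, 4 had 80% or more in both WT libraries, and these had mean KO levels of 29.8 to 48.2%. The fifth, 118915001 to 118916000 on chromosome 11, had 5.49% and 1.70% in KO, and 4.16% and 4.22% in WT. In 3 other shared patterns the mean KO levels of the member and its match were nearer. They were 52.0% and 59.5% in 1 pattern, 29.2% and 35.8% in another, and 19.6% and 21.7% in the last. In a pattern of 2 members they were 39.1% and 53.0%. Windows of the remaining patterns differed more, in WT or in KO. The member 79726001 to 79727000 of chromosome 15 had 87.5% and 86.1% in WT, while the window on chromosome 17 with its pattern had 0.373% and 1.23%. The member 23694001 to 23695000 of chromosome 19 had 90.02% and 88.0% in WT, while its match on chromosome 12 had 0.205% and 0.309%. Both matches are thus unmethylated in WT. The member 65425001 to 65426000 of chromosome 13 had a mean KO level of 30.7%, and its match on chromosome 16, at 11.8 calls, had 58.7%. In a pattern of 3 windows the member, on chromosome 18, had a mean KO level of 11.8%, and the match with a WT level of 80% or more had 28.3%.

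**Figure D4:**
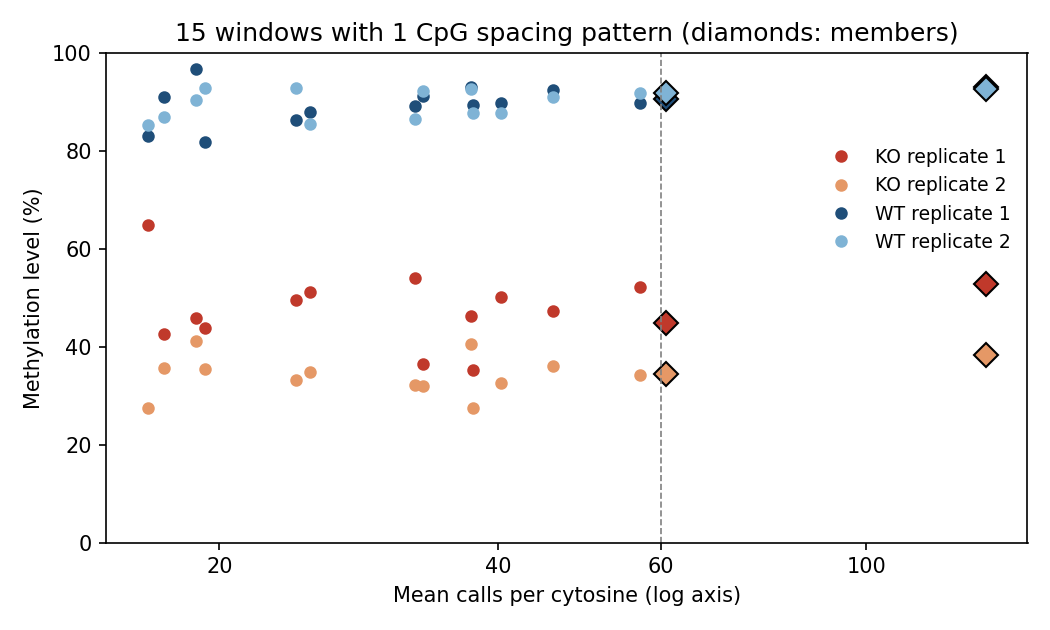
Methylation level (%) in each library against mean calls per cytosine (log axis) for the 15 windows that share the spacing pattern of 4, 2, 11, 12, 3 and 25 bp; diamonds are the 2 members and the dashed line marks 60 calls. Mean KO levels stay between 31.3 and 46.1% over depths of 16.8 to 134.6 calls.

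Members were more frequent on chromosome 8 than on other chromosomes. Of the windows with 80% or more in both WT libraries, 166 of 3614 (4.59%) were members on chromosome 8, against 2.13% on the other autosomes, where single chromosomes had 1.34 to 2.94%. The excess was in the WT libraries. By the depth of the KO libraries alone 2.63% of these windows of chromosome 8 reached 60 calls, near the 2.19% of the other autosomes. By the depth of the WT libraries alone 7.89% did, against 2.44% on the other autosomes. The median ratio of KO to WT depth, each library scaled to its calls in all windows, was 0.903 for members on chromosome 8 and 1.05 for members elsewhere. It was 0.906 for all windows of chromosome 8 with the same WT minimum, and 1.02 for all windows of the other autosomes at any level, so windows of chromosome 8 in general had the lower KO depth. The members of chromosome 8 kept 29.2% ± 8.11 of the WT level and those elsewhere 31.5% ± 8.38 (SD, n = 2 KO libraries). Single chromosomes ranged from 27.7% on chromosome 7 to 34.8% on chromosome 12.

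**Figure D5:**
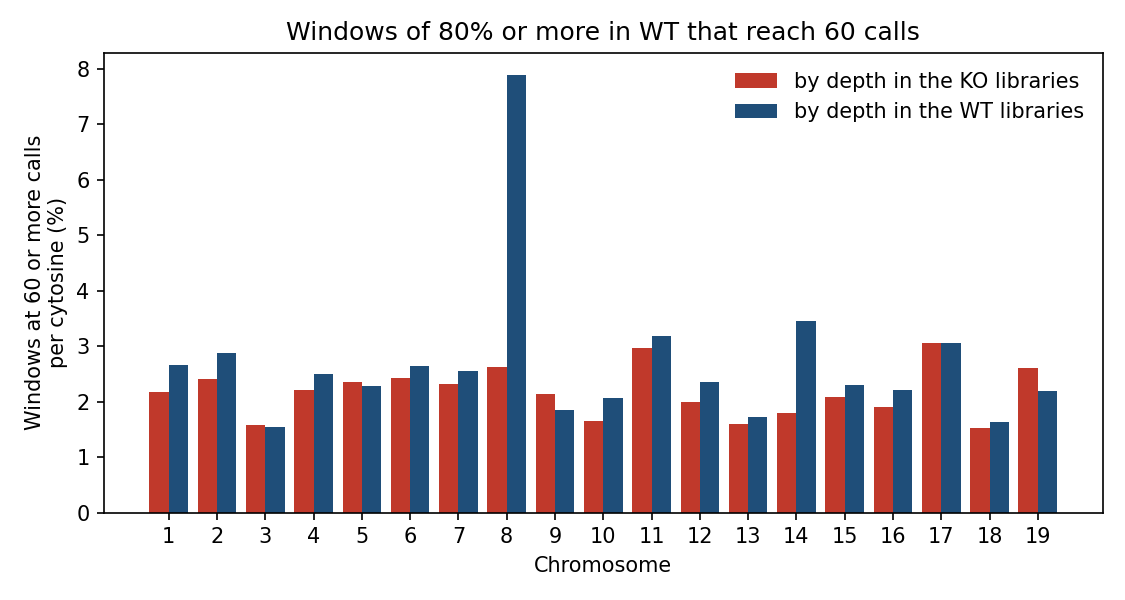
Share (%) of windows with 80% or more in both WT libraries that reach 60 calls per cytosine, by chromosome, counted by the mean depth of the 2 KO libraries (left bar) and of the 2 WT libraries (right bar). Chromosome 8 stands at 2.63% by KO depth and 7.89% by WT depth.

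Depth itself differed between the genotypes in few members. In edgeR's quasi-likelihood test on all calls per window, with an adjusted p below 0.05 over all windows and at least 1.5-fold between the genotypes, 2 members were called deeper in KO and 1 less deep. Among all windows 0.031% were called deeper and 0.0553% less deep, so the members' shares of 0.165% and 0.0826% rest on 3 windows. On chromosome 6, the window 142098001 to 142099000 had 39 and 19 calls per cytosine in KO, against 125.8 and 108.8 in WT, a fitted log2 ratio of -1.95. Its KO depth is below 60, so it is a member only through its WT depth, and this ratio is given as a description. Its levels were 50.0% and 54.4% in KO, from at least 114 calls, and 94.97% and 94.95% in WT. The window 23694001 to 23695000 of chromosome 19, already named for its low KO level, had 119.3 and 107.5 calls in KO, against 77.5 and 66.8 in WT, a log2 ratio of 0.71 (adjusted p = 0.00911). The window 20238001 to 20239000 of chromosome 12, in the group of 4 described above, had 159.4 and 205.3 calls in KO, against 125.8 and 116.8 in WT, a log2 ratio of 0.65 (adjusted p = 0.0392). In none of the 3 windows did the depths of the KO and WT libraries overlap. With members chosen anew without KO replicate 1, 3 were called deeper in KO and 5 less deep, and without KO replicate 2 it was 4 and 4. These fits take the spread from the WT libraries alone and assume that the lone KO library varies like them. Whether the number of copies differs between the cells was not tested.

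The read stretch of a member was shorter than that of a comparison window. Member cytosines spanned a median of 92 bp of the window, against 144 bp, and 5 cytosines was the median number, against 6. A mean of 58.8% of the cytosines in a member had the other strand of the same CpG read as well, against 49.01% in comparison windows. Members of 100 or more calls differed from the rest of the members in these measures, with a median span of 135.5 bp, 7 cytosines and 44.9% read on both strands. Within 1 Mb of the first cytosine listed for a chromosome lay 4 of the 72 members of 100 or more calls (5.56%). These 4 were among the 56 members of 100 to 200 calls, with 0 of 16 at 200 or more. At 80 to 100 calls it was 2 of 60 (3.33%), at 60 to 80 calls 7 of 1078 (0.649%), and in comparison windows 0.802%. The shares of the deeper classes rest on few windows, and neighbouring windows were not counted as 1.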

How the data were processed

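Methylation was read in 2 KO and 2 WT libraries, grouped by the sample titles. The authors deposited 1 table per library with the percent methylation of each CpG cytosine, which equals the methylated over all calls, and the counts of methylated and unmethylated calls, neither normalised. Per the submitters' processing notes, Trim Galore, Bismark 0.10.1 and the build mm9 were used; the sources used here do not give their settings or any removal of duplicate or ambiguous reads. Coordinates are 1-based in mm9.

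Cytosines of chromosomes 1 to 19 with 10 or more calls in every library (1874113) were summed in windows of 1 kb with 3 or more of them. The median depth of these cytosines was 26 to 31 calls. All 119319 windows were tested in R 4.3.3 with edgeR 4.0.16: methylation by a fit of both count columns with a term for each library, one for the methylated column and one for its change with genotype, and depth by all calls with TMM scaling. Methylation could be fitted in 118948 windows; the others got a p of 1. On simulated windows made from the measured depths, 86 of 100 changed by 30 points, 16 of 100 changed by 15 points and 0 of 119119 unchanged ones were called in the methylation test. The simulation gave both genotypes the same spread between libraries and changed few windows. In the data the KO libraries differed more (chi-square of 2.46 per cytosine) than the WT libraries (1.10). These rates therefore do not cover the spread of the KO libraries. Exact permutation tests used scipy 1.17.1.

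The windows named are, with members less than 2 kb apart counted as 1, the 8 deepest, the 8 with the highest and the 8 with the lowest mean KO level, those called different in depth and those next to 60 calls; members of shared patterns and of neighbour groups were named after their values were seen. The members and classes were chosen with earlier results of these data known. Alternatives were other coverage minimums, window sizes, depth and WT minimums, weights, limma 3.58.1, DESeq2 1.42.0, Fisher's exact test, and each library left out; those on neighbours and on members of 100 or more calls were chosen after seeing the data.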

Additional observations from a re-analysis of the deposited data

How the results depend on the processing

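The methylation results kept their direction in every alternative run, while the split of members called different in depth did not: 2 deeper and 1 less deep became 3 and 5 without KO replicate 1. The number of members called lower in KO followed the number of windows the rule let in: 144 with 10 or more cytosines, 72 at a depth of 100 or more, 3900 at a depth of 50 or more and 596 at a WT level of 90% or more. With libraries centred in limma, the median log odds of methylated to unmethylated calls over windows of intermediate mean level was subtracted from each library. A window whose log odds fell less than this shift is then counted as higher, even where its level did not rise. In this form 236 members (19.5%) were lower than that shift and 47 (3.88%) higher, against 17.5% and 4.14% of comparison windows and 8.70% and 36.8% of all windows. Leaving out 1 library gave 1019 to 1462. The share of the WT level kept was 40.9% at a depth of 100 or more, and 25.2 to 37.2% with 1 library left out. The gap between members and comparison windows (0.601 points) ran from 0.0205 at a depth of 50 or more to 8.54 at 100 or more. It was 4.10 when calls were summed over windows, where the 2 deepest held 19.2% of member calls. Leaving out 1 library gave 0.422 to 0.898. For members of 100 or more calls it ran from 4.71 without the deepest positions to 10.6 without chromosomes 8 and 14, and from 7.81 to 9.33 with 1 library left out; these alternatives were chosen after seeing the data. Members called different in depth numbered 1 at a depth of 100 or more and 3 to 8 with 1 library left out, where the spread comes from the other genotype alone.

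Equal replicate numbers did not pair the libraries: deviations of same-numbered libraries correlated at 0.0041 for methylation and 0.0058 for depth. With a replicate block 1210 members were called lower in KO and 6 different in depth.

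With 2 libraries a genotype, no comparison over libraries alone can reach a p below 0.33. A window of few calls has a wide interval, up to ± 8.99 points (Wilson) in the named windows.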
